A study of Mus musculus with 4 samples.

Results

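The nuclear receptors that sense foreign chemicals, sterols, bile acids and glucocorticoids in the intestinal epithelium were examined together with Ahr, the aryl hydrocarbon receptor. The set holds 10 genes: Nr1i2, Nr1i3, Nr1h3, Nr1h4, Nr5a2, Nr3c1, Nr0b2, Rxra, Rxrb and Ahr. Its members were all probe sets whose platform annotation names 1 of these genes and no other gene, which gave 22 of the 45037 probe sets on the array that are not array controls. All 10 genes had at least 1 such probe set, from 1 each for Nr1i3, Nr1h3, Nr1h4, Nr0b2 and Rxrb to 6 for Nr3c1, and no filter on low values was applied. Each probe set sums up several short oligonucleotides designed against one stretch of transcript. In its name the ending _a_at marks a group that detects several transcripts of a gene, and _s_at a group that may detect transcripts of more than 1 gene.

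Knockout mice were of the genotype YY1f/f; Vil-Cre-ERT2, in which Villin regulatory sequence, active in gut epithelium, drives a Cre recombinase that tamoxifen switches on, and 2 arrays came from their crypts after 4 days of tamoxifen. Another 2 arrays came from mice labelled only as control, without a stated genotype. Their treatment label is the same as that of the knockouts and names 4 days of tamoxifen, but its wording does not settle which mice this covers, so Yy1 loss and effects of Cre-ERT2 or tamoxifen cannot be told apart. The strain label was C57BL/6J enriched in both groups, and ages were not given. RNA was from jejunal crypt epithelium released with EDTA, the titles call the replicates biological, and whether animals were pooled was not given.

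Most of these proteins are ligand-activated transcription factors. Nr1i2 (PXR) and Nr1i3 (CAR) respond to drugs and other foreign compounds, Nr1h3 (LXRalpha) to oxysterols and Nr1h4 (FXR) to bile acids, and each binds DNA in a pair with a retinoid X receptor, Rxra or Rxrb. Nr3c1 is the glucocorticoid receptor, Nr5a2 (LRH-1) binds DNA as a monomer, and Nr0b2 (SHP) lacks a DNA-binding domain and represses other receptors. Ahr belongs to another family, the basic helix-loop-helix PAS proteins, and pairs with Arnt. In the gut these factors control detoxifying enzymes, sterol and bile acid transporters and local steroid responses.

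Array medians were alike, between 139 and 143, and 27 control probe sets for Bacillus transcripts had medians between 31.9 and 35.6, taken as a measure of background. The 4 Yy1 probe sets were all called lower in the knockout arrays, with log2 differences from -4.31 to -1.37, and where they lie relative to the deleted part was not analysed here. Of 5 epithelial markers, all at 3039 or more in all 4 arrays, Epcam (-0.13), Cdh1 (-0.13), Krt8 (-0.12) and Krt20 (-0.50) were not called, and Vil1 was called lower (-0.53, adjusted p = 0.0465). Over all 18193 genes, 10.9% were called lower and 13.4% higher, and 6450 had an unadjusted p under 0.05 in either direction. Of 33 measured markers of mature enterocytes, the absorptive cells of the villus, 25 were called lower and 0 higher, with 31 lower and 0 higher at an unadjusted p under 0.05. Their summed intensity was 85742 and 125111 in the knockout arrays against 179206 and 176688 in the control arrays, and none was at the background level in all arrays. Without control replicate 1 the count of lower markers was 13, without control replicate 2 it was 15, and with a trended and robust prior it was 13. Of 20 mesenchyme markers 2 were called lower and Tagln higher, of 21 blood cell markers 2 were lower, of 12 goblet cell markers 3 were lower, and of 7 Paneth cell markers 1 was higher. The lower shares of mesenchyme (10%) and blood cell markers (9.52%) were near the 10.9% of all genes, and that of goblet markers was 25%. The higher share of Paneth markers (14.3%) was near the 13.4% of all genes. Without knockout replicate 1, control replicate 1 or control replicate 2, the goblet count was 0, 1 and 0, the blood cell count was 1 each time, and no mesenchyme or Paneth marker was called higher. Without knockout replicate 2, Tagln was not called either, and 1 mesenchyme marker was lower, as without control replicate 2. As a sign of RNA quality, the Gapdh control signal at the 3' end minus that at the 5' end (log2) was 1.71 and 1.65 in the knockout arrays against 1.44 and 1.40 in the control arrays (exact two-sided permutation p = 0.333, the smallest that 2 against 2 can give). The part of the enterocyte markers and of RNA quality in the receptor results below was not tested.

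Of the 10 receptor genes, 4 were lower in Yy1 knockout crypts and none was higher. The 4 were Nr1i3, Nr1h3, Nr3c1 and Rxra, with knockout means at 53.4% to 66.1% of the control means. The other 6 genes did not pass the test, and among them Nr1h4, Nr5a2, Nr0b2 and Rxrb had knockout means at 101% to 110% of control. Each gene was represented by its brightest probe set, and the test was limma on log2(intensity + 16), knockout minus control, with a call at an adjusted p under 0.05 over all 18193 genes. By that rule 10.9% of all genes were called lower, 13.4% higher and 24.4% in either direction. Of the 18193 genes, 6450 had an unadjusted p under 0.05 in either direction. At an unadjusted p under 0.05, 5 of the receptor genes were lower and 0 higher, and without control replicate 1 the test called 2 of them, Nr3c1 and Rxra. Both knockout arrays lay below both control arrays for 6 of the 10 genes, where 29.3% of all genes showed this pattern. The median log2 difference of the 10 genes was -0.35, against 0.01 over all genes. In bulk RNA, fewer cells of a type and less RNA per cell cannot be told apart.

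At the level of single probe sets, 8 of 22 were called lower and 0 higher, where 9.09% of all probe sets were called lower and 10.9% higher. Probe sets of the same gene are not independent, and Nr3c1 alone supplied 6 of the 22 and 3 of the 8. Both knockout arrays lay below both control arrays in 12 of the 22, a pattern seen in 28.4% of all probe sets, and above them in 2, a pattern seen in 31.5%. The groups overlapped in the other 8. Left out in turn, the arrays moved the number of probe sets called lower to 3 without knockout replicate 1, 4 without control replicate 1 and 3 without control replicate 2, while it was 8 without knockout replicate 2.

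**Figure D1:**
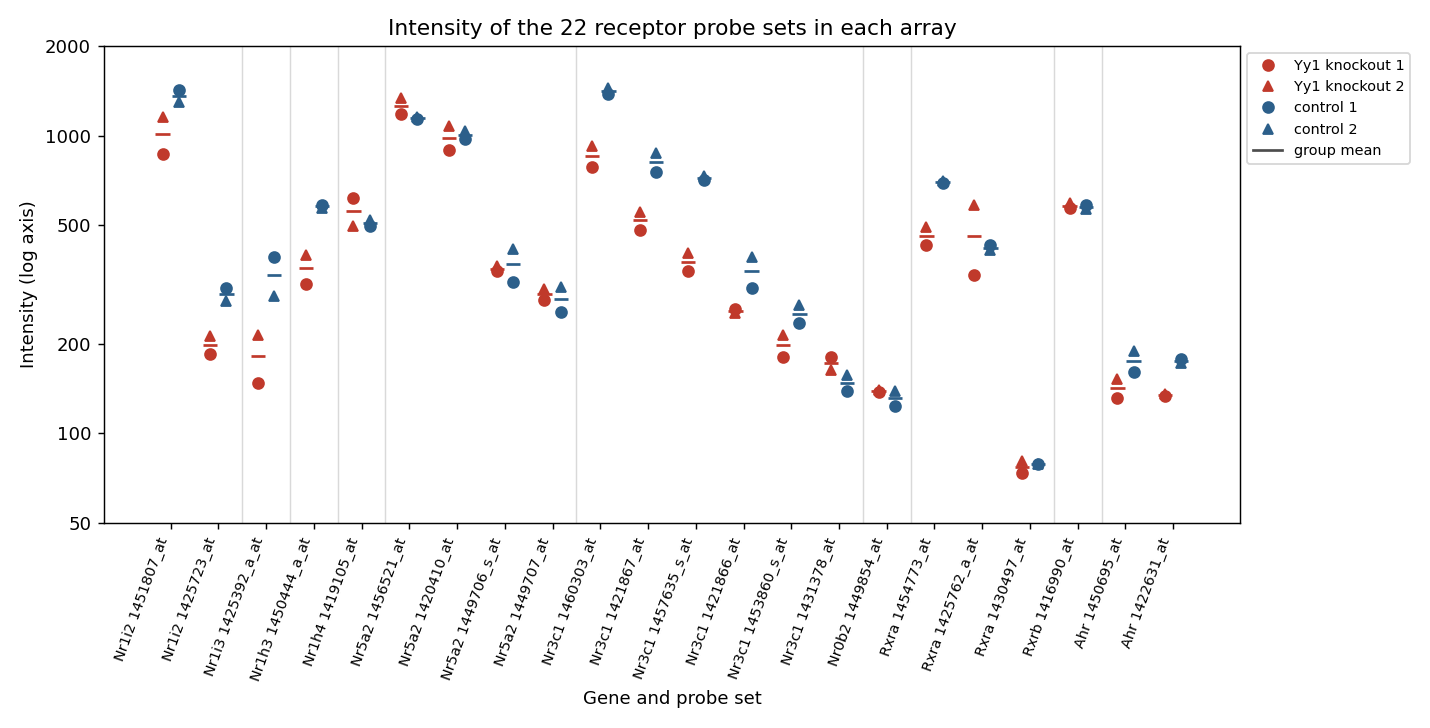
Intensity (log axis) of the 22 receptor probe sets in the 2 Yy1 knockout arrays (red, left of each pair) and the 2 control arrays (blue), with circles for replicate 1, triangles for replicate 2 and short lines for group means. The red points lie below the blue ones for Nr1i2, Nr1i3, Nr1h3, Ahr, the brightest Rxra probe set and 5 of the 6 Nr3c1 probe sets, and the points of Rxrb lie together.

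Of the xenobiotic receptors, Nr1i3 (CAR) had the lowest knockout mean relative to control of the 10 genes. Its probe set gave intensities of 148 and 215 in knockout replicates 1 and 2, against 390 and 290 in control replicates 1 and 2. The groups did not overlap, and in each group the arrays stood well apart. The knockout mean was 181 ± 47.0 and the control mean 340 ± 70.9 (SD, n = 2 each), a log2 difference of -0.86 ± 0.19 (SE) with an adjusted p of 0.0189. The call was lost without knockout replicate 1 (-0.61, adjusted p = 0.0798) and without control replicate 1 (-0.65, adjusted p = 0.0996).

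Nr1i2 (PXR), the main sensor for drugs in the intestine, lay on the edge of the threshold. Its brighter probe set had 866 and 1151 in the knockout arrays against 1423 and 1298 in the control arrays. These groups did not overlap, but the knockout arrays differed more from each other than the controls did, and the gene did not pass (-0.44 ± 0.15, adjusted p = 0.0727, 95% interval -0.79 to -0.09). The dimmer probe set, 1425723_at, had 185 and 212 in the knockout arrays against 307 and 279 in the control arrays, and was called lower (-0.53 ± 0.11, adjusted p = 0.0171 over all probe sets). Nr1i2 was also called without knockout replicate 2 (-0.64, adjusted p = 0.0142) and with a trended and robust prior (adjusted p = 0.0463).

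Ahr, the receptor for dioxins and for indoles from diet and microbes, had 132 and 152 in the knockout arrays against 160 and 189 in the control arrays with the probe set used for the gene. The groups did not overlap, and the gene did not pass (-0.27 ± 0.12, adjusted p = 0.163, 95% interval -0.55 to 0.02). The other probe set, 1422631_at, had 134 and 136 in the knockout arrays against 178 and 173 in the control arrays. Its arrays matched closely within each group, and it was called lower (-0.34 ± 0.10, adjusted p = 0.0459 over all probe sets).

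Of the sterol and bile acid sensors, Nr1h3 (LXRalpha) fell and Nr1h4 (FXR) was not called. Nr1h3 had 317 and 399 in the knockout arrays against 586 and 570 in the control arrays. Both knockout values were clearly below the closely matched control values, and the log2 difference was -0.68 ± 0.13 (adjusted p = 0.00926, and 0.0544 without control replicate 1). Nr1h4 had 616 and 499 in the knockout arrays against 498 and 519 in the control arrays. These groups overlapped, knockout replicate 1 was the highest of the 4, and the log2 difference was 0.12 with a 95% interval from -0.17 to 0.41 (adjusted p = 0.544). Without knockout replicate 1 its sign was negative (-0.03).

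Nr0b2 (SHP), the repressor that FXR and LRH-1 are known to induce, had 137 and 140 in the knockout arrays against 124 and 139 in the control arrays. The groups overlapped, and its log2 difference of 0.07 had a 95% interval from -0.16 to 0.31 (adjusted p = 0.666). Nr5a2 (LRH-1), which in the intestine is known for crypt cell renewal and local steroid synthesis, was not called with any of its 4 probe sets. Its brightest probe set had 1184 and 1335 in the knockout arrays against 1138 and 1155 in the control arrays, with both knockout values above the controls (0.13, 95% interval -0.11 to 0.38, adjusted p = 0.429). The log2 differences of the other 3 lay between -0.04 and 0.05, with groups that overlapped.

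**Figure D2:**
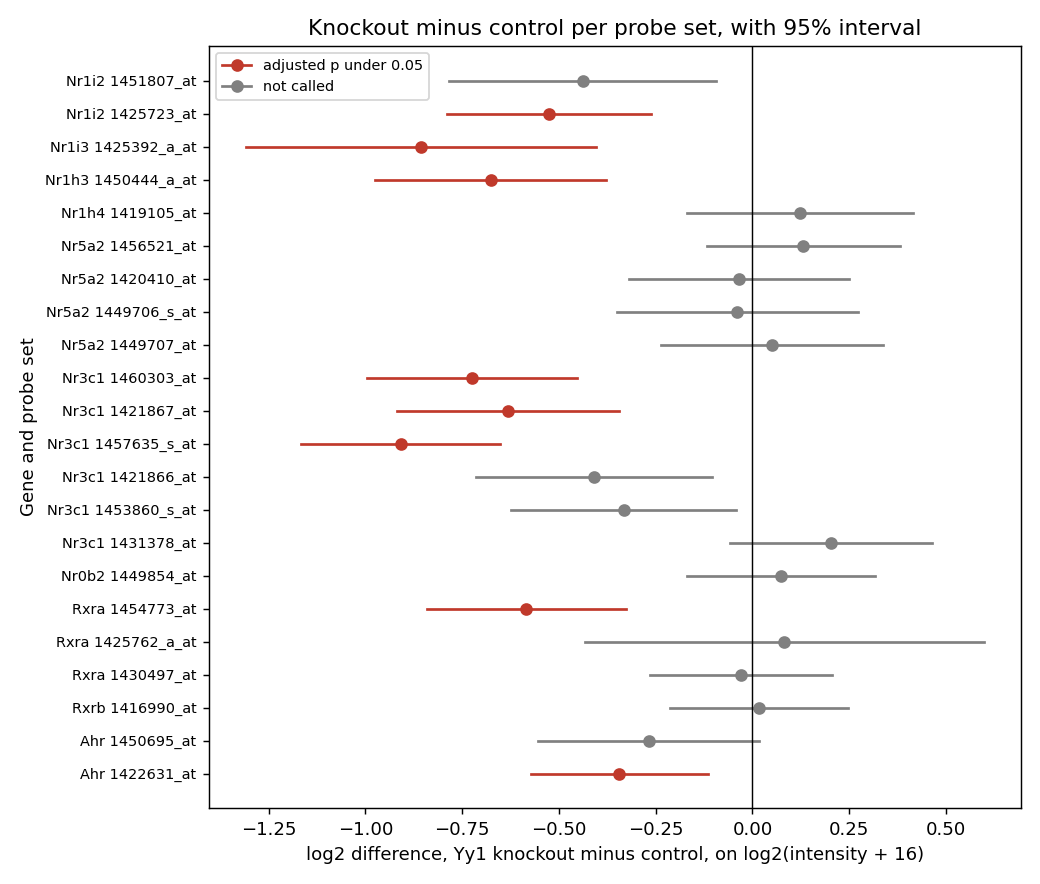
Log2 difference, Yy1 knockout minus control on log2(intensity + 16), of each receptor probe set (dots) with its 95% interval from limma (lines), red where the adjusted p over all probe sets was under 0.05. The 8 red probe sets lie between -0.91 and -0.34, and the grey ones of Nr1h4, Nr5a2, Nr0b2 and Rxrb have intervals that span 0.

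The glucocorticoid receptor gene Nr3c1 was lower with 3 of its 6 probe sets, and its call held with each array left out. Its brightest probe set had 783 and 923 in the knockout arrays against 1382 and 1449 in the control arrays. The knockout mean was 853 ± 99.0 and the control mean 1415 ± 47.4 (SD, n = 2 each), with no overlap (-0.72 ± 0.11, adjusted p = 0.00510). The largest difference of any receptor probe set was that of 1457635_s_at, with 350 and 402 in the knockout arrays against 707 and 731 in the control arrays (-0.91 ± 0.11, adjusted p = 0.00244 over all probe sets). Probe set 1421867_at also fell, with 483 and 556 in the knockout arrays against 753 and 873 in the control arrays. Both knockout arrays were likewise under both controls for 1421866_at (-0.41, adjusted p = 0.0666) and 1453860_s_at (-0.33, adjusted p = 0.107). The dimmest probe set, 1431378_at, went the other way, with 181 and 164 in the knockout arrays against 138 and 157 in the control arrays (0.20, adjusted p = 0.264). The difference between these probe sets was not tested, and which transcripts they detect was not analysed here.

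Of the shared partners of the receptors, Rxra fell with 1 of its 3 probe sets and Rxrb was not called. The brightest Rxra probe set had 428 and 494 in the knockout arrays against 693 and 702 in the control arrays. Both knockout values were lower than the tightly placed controls, and the log2 difference was -0.58 ± 0.11 (adjusted p = 0.00876, and 0.0562 without control replicate 2). The second Rxra probe set, 1425762_a_at, had 339 and 584 in the knockout arrays against 428 and 412 in the control arrays. Here the knockout arrays stood on either side of the controls, with a log2 difference of 0.08 and a 95% interval from -0.43 to 0.60. The dimmest Rxra probe set stood at 73.6 and 80.6 in the knockout arrays against 78.7 and 79.2 in the control arrays (-0.03). Rxrb had 571 and 592 in the knockout arrays against 585 and 565 in the control arrays. Its 4 values lay close together, and the log2 difference of 0.02 had a 95% interval from -0.21 to 0.24 (adjusted p = 0.928). Its sign was negative after quantile normalization (-0.02). Whether Rxra and Rxrb differed in response was not tested. The 95% interval of the brightest Rxra probe set, -0.84 to -0.33, did not overlap that of Rxrb, -0.21 to 0.24. Those of the other Rxra probe sets, -0.43 to 0.60 and -0.27 to 0.21, did.

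Promoter windows of 300 bases, from 250 bases before to 50 bases after an annotated start, were taken from RefSeq for 8 of the 10 genes (GRCm38.p6, 12 windows in all). No window was used for Ahr or for Nr3c1, which was called lower. Member windows on 1 chromosome were left out of the search, so the 12 windows are not all that exist. They were searched on both strands for AANATGG, the core of the known YY1 binding motif, for its longer form AANATGGCG, which contains it, and for AGGTCA, the half-site bound by many nuclear receptors. AANATGG occurred in 1 of the 12 windows, against 16.1% of 32851 windows of all genes, and that window belongs to Rxrb, which was not called. Rxrb held it at 2 places, bases -154 to -148 and 6 to 12 from the start, each within a copy of AANATGGCG, which occurred in 2.38% of all windows. AGGTCA occurred in 3 of the 12 windows, those of Rxra, Nr1h4 and Nr5a2, against 16.3% of all windows. Shown are Rxrb and the called genes other than Nr3c1, namely Rxra, Nr1h3 and Nr1i3. They run 5' to 3' on the strand of the gene, with AANATGG or AGGTCA on either strand in capitals. The windows lie at chr17:34031562-34031861 (plus strand, 1 of 2 starts) for Rxrb, chr2:27709042-27709341 (plus strand, 1 of 2 starts) for Rxra, chr2:91195067-91195366 (minus strand, 1 of 2 starts) for Nr1h3 and chr1:171213720-171214019 (plus strand) for Nr1i3. For Rxrb and Rxra the window with matches is shown, and the window of the other start held none of the motifs. A match describes letters only, and which starts are used in crypts was not analysed here.
Rxrb: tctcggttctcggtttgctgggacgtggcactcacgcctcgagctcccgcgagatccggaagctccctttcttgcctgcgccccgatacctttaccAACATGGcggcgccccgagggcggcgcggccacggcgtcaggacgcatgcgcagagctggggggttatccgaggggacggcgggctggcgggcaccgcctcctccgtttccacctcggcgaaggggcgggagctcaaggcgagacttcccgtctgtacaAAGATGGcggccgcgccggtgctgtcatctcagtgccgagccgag
Rxra: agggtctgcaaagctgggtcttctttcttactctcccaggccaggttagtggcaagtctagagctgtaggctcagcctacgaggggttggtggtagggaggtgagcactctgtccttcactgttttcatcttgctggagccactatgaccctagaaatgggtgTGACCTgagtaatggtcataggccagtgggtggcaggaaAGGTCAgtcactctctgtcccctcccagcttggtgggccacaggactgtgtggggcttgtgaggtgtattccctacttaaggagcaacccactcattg
Nr1h3: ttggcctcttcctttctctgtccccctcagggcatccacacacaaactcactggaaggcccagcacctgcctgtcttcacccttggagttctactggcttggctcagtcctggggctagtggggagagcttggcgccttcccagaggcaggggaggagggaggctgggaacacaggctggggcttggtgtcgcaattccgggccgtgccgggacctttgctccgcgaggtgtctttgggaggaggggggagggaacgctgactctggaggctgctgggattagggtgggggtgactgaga
Nr1i3: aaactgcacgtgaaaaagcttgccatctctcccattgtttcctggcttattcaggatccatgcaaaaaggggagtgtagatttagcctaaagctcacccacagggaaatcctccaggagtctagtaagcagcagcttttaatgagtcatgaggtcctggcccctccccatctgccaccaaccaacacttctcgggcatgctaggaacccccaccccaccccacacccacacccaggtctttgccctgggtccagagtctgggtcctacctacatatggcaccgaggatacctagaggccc

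The known target genes of the receptors were then described from lists, with counts read against the 10.9% of all genes called lower and 13.4% called higher. Counts at an unadjusted p under 0.05 were read against 6450 of all 18193 genes, in either direction. Over 6 lists, 107 distinct target genes were measured, of which 39 were called lower and 5 higher, and 7 genes stood in more than 1 list. The lists do not state whether a receptor raises or lowers a gene, so falls and rises were not read as receptor activity. Targets of PXR and CAR, mostly enzymes and transporters that clear foreign compounds, had the highest share of falls among the 6 lists. Of 21 measured, 14 fell and none rose, with 15 lower and 1 higher at an unadjusted p under 0.05 (median log2 -0.74). Cyp3a25 had 54.0 and 86.7 in the knockout arrays against 1555 and 1279 in the control arrays (-4.07 ± 0.19, adjusted p = 0.000174). Its knockout values were not far above the background medians of 31.9 to 35.6, which limits how exactly the size of this fall is known. Cyp2c55, a cytochrome P450 of the gut, had 90.6 and 139 in the knockout arrays against 1138 and 1115 in the control arrays (-3.15 ± 0.17). The aldehyde dehydrogenases Aldh1a7 (-2.49 ± 0.22) and Aldh1a1 (-2.32 ± 0.21) also fell. Among genes chosen after their values were seen, the classic PXR target Cyp3a11 had 445 and 1223 in the knockout arrays against 3865 and 3206 in the control arrays (-2.23 ± 0.40). The classic CAR target Cyp2b10 had 314 and 731 in the knockout arrays against 2547 and 1909 in the control arrays (-2.16 ± 0.35). The drug efflux pump Abcb1a also fell, with 2133 and 2936 in the knockout arrays against 4522 and 3876 in the control arrays (-0.74 ± 0.16). Cyp2c29, at 30.3 and 63.9 in the knockout arrays, and Cyp3a44, at 32.1 and 40.0, were near background there, which leaves the size of their falls unknown.

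Targets of the oxysterol receptors fell in part: of 18 measured, 7 fell and Fasn rose (median log2 -0.18). The fallen genes of sterol transport included Abca1, the cholesterol efflux pump, with 151 and 275 in the knockout arrays against 822 and 679 in the control arrays (-1.79 ± 0.24). Npc1l1, which takes up cholesterol from the gut lumen, had 1336 and 2121 in the knockout arrays against 3833 and 3864 in the control arrays (-1.19 ± 0.20). Smpdl3a (-1.57 ± 0.10) and the phospholipid enzyme Lpcat3 (-1.14 ± 0.13) also fell. Of the lipid synthesis targets, Fasn had 434 and 354 in the knockout arrays against 285 and 266 in the control arrays (0.48 ± 0.12, adjusted p = 0.0284). Srebf1 (-0.14), Acaca (0.12) and Scd1 (-0.04) were not called. Fasn was not called without knockout replicate 1, control replicate 1 or control replicate 2, where no target in the list was called higher.

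Of 20 measured genes listed as FXR targets, which include genes of bile acid transport, lipid transport and mucosal defence, 5 fell and none rose, with 7 lower and 1 higher at an unadjusted p under 0.05 (median log2 -0.17). The bile acid binding protein Fabp6 had 3007 and 3227 in the knockout arrays against 8614 and 8362 in the control arrays (-1.44 ± 0.10, adjusted p = 0.000416). The basolateral exporter subunit Slc51a had 292 and 414 in the knockout arrays against 1277 and 1305 in the control arrays (-1.84 ± 0.16). Its partner subunit Slc51b was not called (-0.45 ± 0.20). The apical bile acid importer Slc10a2 (-1.30 ± 0.16), the cytokine gene Il18 (-1.74 ± 0.11) and the hormone gene Fgf15 (-0.62 ± 0.12) also fell, Fgf15 with knockout values of 35.8 and 42.6 near background. Without knockout replicate 2, 10 genes of this list were called lower.

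Of 24 measured glucocorticoid targets, 7 fell and 3 rose (median log2 -0.12). The kinase Sgk1 had 617 and 1423 in the knockout arrays against 5107 and 3927 in the control arrays (-2.24 ± 0.34), and Pck1 (-1.17 ± 0.22), Pdk4 (-1.40 ± 0.27) and Angptl4 (-0.77 ± 0.16) fell. Tsc22d3, a widely used readout of the receptor chosen after its values were seen, had 321 and 484 in the knockout arrays against 943 and 656 in the control arrays (-0.97 ± 0.23). Fkbp5, another such readout, was not called, with 1974 and 1756 in the knockout arrays against 1947 and 1032 in the control arrays (0.39 ± 0.26). The transcription factor Cebpd (0.59 ± 0.11), Sult1a1 (0.63 ± 0.13) and the metallothionein Mt2 (1.23 ± 0.32) rose. Mt2 had 2093 and 2120 in the knockout arrays against 594 and 1333 in the control arrays, which stood well apart. The count of falls was 4 without knockout replicate 1, 2 without control replicate 1, 4 with a trended and robust prior and 2 when each gene took its dimmest probe set, and the count of rises was 1 without knockout replicate 1.

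Of 17 measured LRH-1 targets, 2 fell (11.8%) and 1 rose (5.88%; median log2 -0.13). Both falls were the sterol exporter subunits Abcg5 (-1.70 ± 0.31) and Abcg8 (-1.51 ± 0.27), which also stand in the oxysterol list and were not called with a trended and robust prior. The rise was that of Cyp11b1 (0.61 ± 0.10), with a mean of 31.5 ± 2.09 in the knockout arrays and 15.0 ± 1.41 in the control arrays (SD, n = 2 each), under or near the background medians. The steroid synthesis gene Cyp11a1 (-0.22), the cyclin genes Ccne1 (0.14) and Ccnd1 (0.09) and Myc (-0.22) were not called.

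Of 15 measured Ahr targets, 6 fell and none rose, with 9 lower and 0 higher at an unadjusted p under 0.05 (median log2 -0.29). Cyp2s1 had 438 and 629 in the knockout arrays against 1362 and 1419 in the control arrays (-1.38 ± 0.16), and Gsta2 (-0.77 ± 0.11), Fos (-0.81 ± 0.16) and Selenbp1 (-0.52 ± 0.11) also fell. Of the classic targets, Cyp1a1 stood at 20.5 and 25.1 in the knockout arrays against 32.2 and 27.7 in the control arrays, all at background. The feedback repressor Ahrr was not called (-0.27 ± 0.10, adjusted p = 0.106). It was near background, with 35.4 and 34.7 in the knockout arrays against 42.3 and 49.0 in the control arrays. Tiparp, a further feedback gene named after its values were seen, was called lower (-0.40 ± 0.12, adjusted p = 0.0466). The number of falls was 3 without knockout replicate 1, without control replicate 1 or without control replicate 2.

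**Figure D3:**
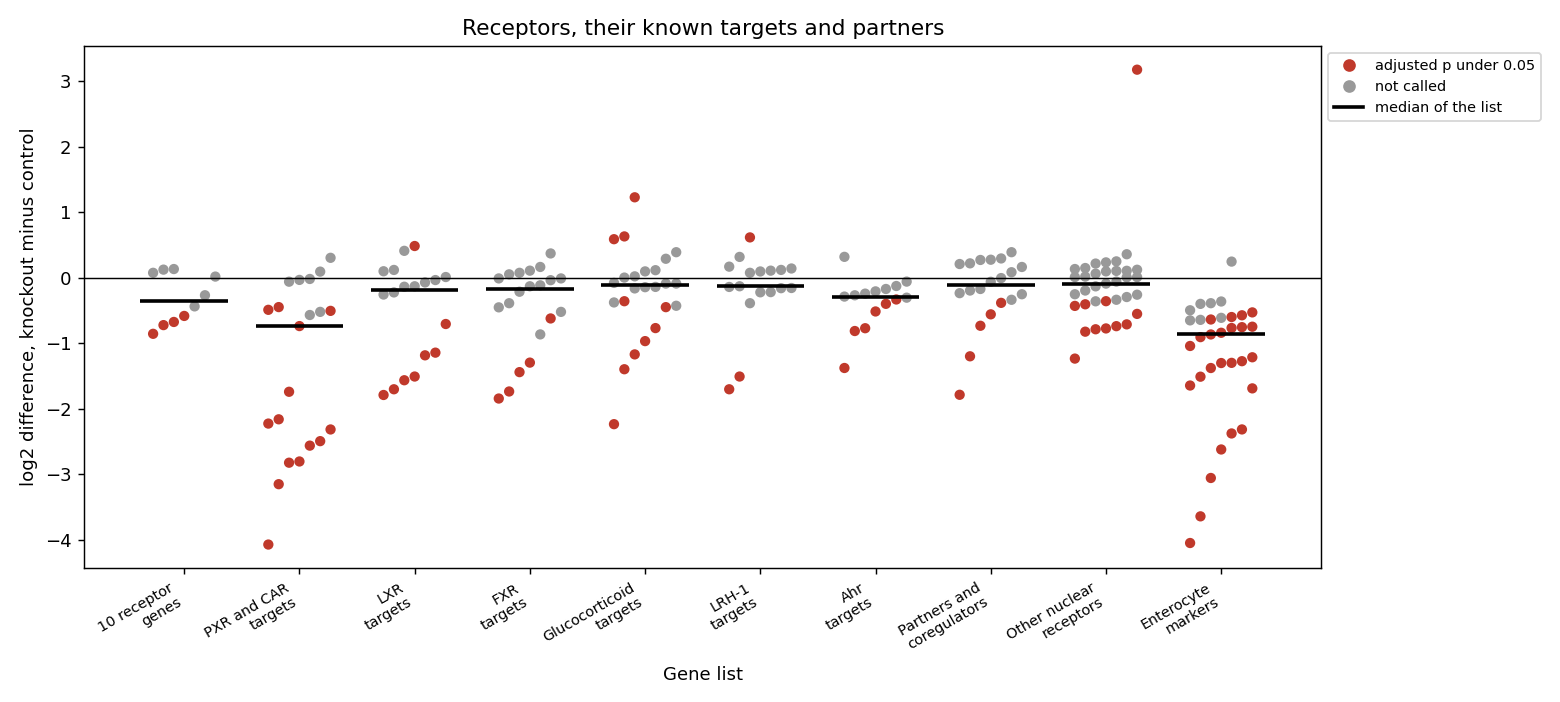
Log2 difference, Yy1 knockout minus control, of the 10 receptor genes and of the measured genes in 9 lists (1 dot per gene, red where the adjusted p over all genes was under 0.05; black bars are list medians). Medians are lowest for enterocyte markers (-0.87) and for PXR and CAR targets (-0.74), and the highest dot is Esr1, whose control values lay under background.

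Among 20 measured partners, chaperones and coregulators, 5 fell and none rose, with 8 lower and 2 higher at an unadjusted p under 0.05 (median log2 -0.12). Arnt, the partner of Ahr, had 596 and 636 in the knockout arrays against 1021 and 1048 in the control arrays (-0.73 ± 0.10, adjusted p = 0.00285). The coactivator Ncoa1 had 197 and 174 in the knockout arrays against 449 and 444 in the control arrays (-1.20 ± 0.10). The coactivators Ppargc1a (-1.79 ± 0.19), Ncoa2 (-0.56 ± 0.10) and Crebbp (-0.38 ± 0.09) also fell. The glucocorticoid receptor cochaperone Fkbp4 (0.22) and the chaperone Hsp90aa1 (0.29) were not called. Without control replicate 2 the falls numbered 3.

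Of 35 other nuclear receptor genes measured, 10 fell and 1 rose, where 10.9% of all genes were called lower and 13.4% higher. Among the 9 nuclear receptors described here, 4 fell. Some of the 35, such as Nr2e1 and Nr0b1, were near background, and whether the sets differ in their share of falls was not tested. Vdr, the vitamin D receptor, had 560 and 735 in the knockout arrays against 1550 and 1514 in the control arrays (-1.23 ± 0.14). Thra (-0.82 ± 0.12), Thrb (-0.74 ± 0.12) and Ppara (-0.77 ± 0.14) also fell. Hnf4a, a receptor of intestinal identity, was not called (-0.13). The rise was that of Esr1, with 227 and 354 in the knockout arrays against 15.1 and 19.6 in the control arrays (adjusted p = 0.000297), where the control values lay under the background medians and leave the size of the rise unknown. The Cre-ERT2 transgene carries part of an estrogen receptor, and whether this probe set detects it was not tested. The number of falls was 5 without knockout replicate 1, 6 without control replicate 1 and 4 without control replicate 2.

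The pattern of each receptor over the 4 arrays was matched to the nearest of these 35 genes by Euclidean distance of log2(intensity + 16) minus the control mean. Ppara was nearest to both Nr1h3 (distance 0.15) and Nr1i3 (0.26), and Thra to Nr3c1 (0.16). Nr1i2 was nearest to the clock-related repressor gene Nr1d2 (0.18), and Ahr to Rara (0.13). Of the other genes not called, Nr5a2, Nr0b2, Rxrb and Nr1h4 were nearest to Pparg (0.03), Rora (0.06), Rarg (0.03) and Nr4a3 (0.12), none of which was called. The matching used the same values as the test, so the call of a neighbour is no separate evidence. The gene nearest to Rxra was Nr2f1 (0.23), whose means of 10.7 in knockout and 19.9 in control lay under background.

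The 2 knockout arrays differed in degree. For 9 of the 10 receptor genes the value was lower in knockout replicate 1 than in knockout replicate 2, Nr1h4 being the exception, and this held for 53.9% of all genes and 74.4% of all genes called lower. The 9 include Nr5a2, Nr0b2 and Rxrb, whose knockout means were not below control, so their order does not mean a larger fall in knockout replicate 1. Nr1i3 stood below the control mean by a log2 difference of -1.10 in knockout replicate 1 and -0.61 in knockout replicate 2. For Nr1h3 the values were -0.83 and -0.52, for Nr3c1 -0.84 and -0.61, and for Rxra -0.68 and -0.49. The enterocyte markers were lower in knockout replicate 1 for all 33 genes, with list means of -1.56 in knockout replicate 1 and -0.93 in knockout replicate 2. The list means of PXR and CAR targets were -1.66 and -1.13 in the same arrays. The part of the enterocyte share in these receptor values was not tested.

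**Figure D4:**
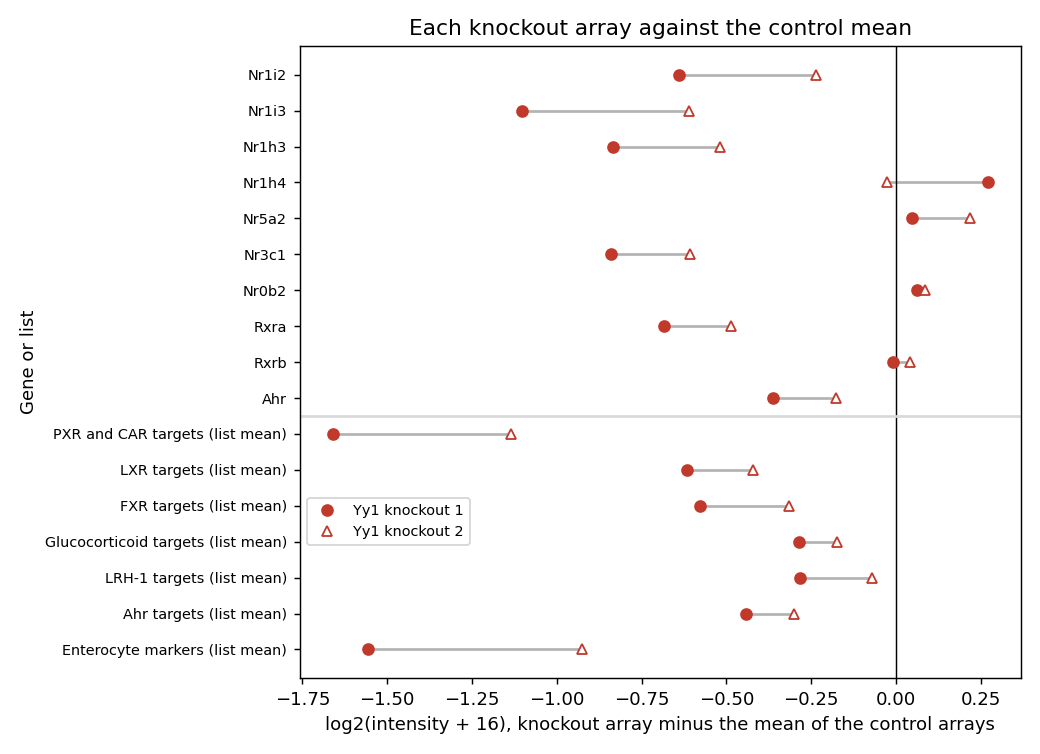
Difference on log2(intensity + 16) of Yy1 knockout replicate 1 (filled circles) and replicate 2 (open triangles) from the mean of the 2 control arrays, for each receptor gene and for the means of the 6 target lists and of the enterocyte markers. Among these lines the circle lies right of the triangle for Nr1h4 and left of it for the others.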

How the data were processed

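Intensities were deposited by the authors as 1 linear value per probe set and array (45101 probe sets, 4 arrays), with a floor of 1. The labels' protocols give Trizol RNA, biotin labelling and Affymetrix hybridisation. Which summary method, background correction or normalization made them is not stated there, and no further scaling was applied. The number of arrays limits the precision.

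Gene names came from the platform table in GEO, brought up to date by Entrez ID with a RefSeq gene table, and promoter windows from RefSeq (GRCm38.p6). Of the probe sets 64 were array controls, 34945 had 1 gene, 932 several and 9160 none. A gene took its probe set with the highest mean. Listed genes without a probe set of their own were not analysed here.

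Tests used limma 3.58.1 in R 4.3.3 (lmFit, eBayes, log2(intensity + 16), knockout minus control, Benjamini-Hochberg over 18193 genes, or over 45037 probe sets where said). The added 16 makes differences of dim genes too small. SE and intervals are those of the moderated fit. The titles call the replicates biological, but separate animals are not stated, so p-values measure the spread between these arrays.

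Members and lists were chosen with earlier results of these data known. Named genes were all members, Yy1, up to 4 called genes with the smallest p per list and direction, and the nearest other nuclear receptor. Further genes, such as Cyp3a44, Fgf15, Crebbp and those named as not called, were chosen after their values were seen. Alternatives were other pseudocounts, scalings, priors, probe sets, a filter, a replicate block and leaving out each array.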

Additional observations from a re-analysis of the deposited data

How the results depend on the processing

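The number of receptor genes called lower was 4 with pseudocounts of 1 and 64, quantile normalization, median scaling, a filter at the median intensity and a replicate block, 5 with a trended and robust prior and 3 when each gene took its dimmest probe set. Leaving out 1 array gave 2 to 5 receptor genes, 3 to 8 receptor probe sets and 2186 to 4339 of all genes called, where all arrays gave 4, 8 and 4434. The count over all genes was 2734 without knockout replicate 1, 2353 without control replicate 1 and 2186 without control replicate 2. The replicate numbers were not taken as pairs, since the replicate differences of the groups correlated at 0.096 over probe sets. With the replicate block, 4880 genes were called, and it changed no call among the receptor genes. Signs reversed for Nr3c1 with its dimmest probe set (0.20), for Nr1h4 without knockout replicate 1 (-0.025, range -0.025 to 0.27 over the arrays left out), and for Rxrb after quantile normalization (-0.022), without control replicate 2 (-0.0076) and without knockout replicate 2 (-0.0093, range -0.0093 to 0.042), where the cause was not tested. Rxra was not called with its dimmest probe set (-0.03, adjusted p = 0.895). Medians of all genes moved by under 0.1 in each setting. Groups of 2 arrays give no check for outlying samples, and dim genes such as Cyp1a1 and Fgf15 are limited by background.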
